A study of Mus musculus with 8 samples.

Results

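The transcription factor p53, encoded in the mouse by Trp53, was followed here together with 9 genes that it binds and activates: Mdm2, Mdm4, Bbc3, Bax, Ccng1, Sesn1, Zmat3, Phlda3 and Trp53inp1. These 10 genes were chosen by name, and each matched 1 row of the count table, out of 48709 genes listed. All 10 passed the low-count filter that left 14929 genes for testing. RNA sequencing had been performed on 8 bulk lung tumors from mice, 4 K-Ctrl and 4 K-Setd2KO. K names a Cre-inducible mouse model of lung adenocarcinoma, whose activating allele both groups carried on a mixed inbred strain background, and every tumor was started by the lentiviral vector LentiCRISPRv2Cre, which delivers Cre recombinase, Cas9 and a guide RNA into the airways. The guide was directed at GFP in K-Ctrl tumors and at Setd2, the gene of the enzyme that trimethylates lysine 36 of histone H3, in K-Setd2KO tumors. Neither group carried the floxed Trp53 allele of the more advanced models in the same study, so the tumors entered the experiment with Trp53 unedited. The study chose stage-matched tumors and described the K-Setd2KO tumors as low-grade adenomas. Beyond an upper limit that the study sets on the age at infection, the age of the mice, the time after infection and whether the 4 tumors of a group came from separate mice are not given in the sources used here, so the p-values measure the spread between these tumors.

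In an unstressed cell p53 is kept scarce mainly at the protein level. Mdm2 is an E3 ubiquitin ligase that marks p53 for degradation, and its relative Mdm4 binds p53 and blocks its activity. Damage or oncogene signals release p53 from both, and p53 then switches on genes that halt the cell cycle, repair DNA or trigger apoptosis, along with Mdm2 itself, which closes a negative feedback loop. For this reason the RNA level of Trp53 says little about p53 activity, and the RNA of its targets is the usual readout. Loss of p53 function is known for carrying lung adenomas to adenocarcinoma.

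p53 binds DNA at a 10-base decamer, usually as 2 decamers side by side. The decamer consensus was searched on both strands in windows from 250 bases before to 50 bases after the transcription start, taken from RefSeq on GRCm38.p6. Windows existed for 8 of the 10 genes, 12 windows in all, and were not found for Zmat3 and Trp53inp1. A decamer matched in 5 of the 12 windows, against 8.4% of 32851 windows over all genes. Adjacent decamers with at most 2 mismatches matched in 1 of the 12, that of Ccng1, against 0.8% of all windows. The motifs can overlap, since a pair may hold a decamer that matches by itself. The 250 bases before the start are shown for the only member with a pair (Ccng1), for the only member called in the RNA comparison (Sesn1, at its second start, inside the gene), and for Cdkn1a, the cell cycle inhibitor p21 and classical p53 target, as a reference. Capitals mark decamers that match the consensus and, in Ccng1 and Cdkn1a, also the adjoining decamer of the pair.
Ccng1, chr11:40755287-40755536, minus strand: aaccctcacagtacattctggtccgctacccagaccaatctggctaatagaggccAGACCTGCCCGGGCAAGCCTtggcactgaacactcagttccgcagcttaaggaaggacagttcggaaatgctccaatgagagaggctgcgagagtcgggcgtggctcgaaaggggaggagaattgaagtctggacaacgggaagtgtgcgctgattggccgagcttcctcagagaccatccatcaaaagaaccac
Sesn1, chr10:41887189-41887438, plus strand: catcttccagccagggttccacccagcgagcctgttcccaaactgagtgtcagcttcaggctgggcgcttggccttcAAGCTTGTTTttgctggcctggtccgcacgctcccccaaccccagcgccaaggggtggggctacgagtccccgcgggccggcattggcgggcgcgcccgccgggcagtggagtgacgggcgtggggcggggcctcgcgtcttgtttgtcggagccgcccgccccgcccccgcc
Cdkn1a, chr17:29090729-29090978, plus strand: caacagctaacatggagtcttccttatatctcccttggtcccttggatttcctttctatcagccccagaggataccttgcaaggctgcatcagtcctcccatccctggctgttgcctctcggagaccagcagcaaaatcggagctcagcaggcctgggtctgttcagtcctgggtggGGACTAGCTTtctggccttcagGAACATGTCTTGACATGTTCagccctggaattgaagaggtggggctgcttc

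The pair in Ccng1 starts at -195 from the transcription start. The pair in Cdkn1a starts at -51 from the first, upstream start of that gene. Each pair has 1 mismatch. The window of the second Cdkn1a start (chr17:29093519-29093818) held no match. Single decamers were found in Trp53 at -75 (GGACTTGCCC), Mdm2 at -186 (GAACTTGCCT) and Bax at -201 (AGGCAAGCTT). These are letter matches in a short window. The windows of Mdm4, Bbc3 and Phlda3 and the first window of Sesn1 held no match, which concerns only these letters and this stretch.

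The count tables summed to between 5806599 and 21290402 assigned reads per tumor, a 3.67-fold span with the lowest total in K-Setd2KO tumor 4. A count of 3 equalled 0.139 to 0.514 CPM, the unit used below, in which read counts are expressed relative to the library size after scaling by trimmed mean of M-values (TMM) factors. Trp53 was covered by 168 to 648 reads per tumor and Bbc3, the least covered member, by 38 to 165. By Xist and Y-linked RNA, K-Ctrl tumor 2 was from a female and the other 3 controls from males, while K-Setd2KO tumor 3 was from a male and the other 3 from females. Sex and genotype were thus largely confounded, and for each named gene with a fitted difference the log2 difference is also given within males (3 controls, 1 knockout) and within females (1 control, 3 knockouts), with no test. A protocol label describes the RNA as coming from cell lines, yet leukocyte and endothelial markers were detected in every library. Summed pan-leukocyte markers ranged from 417 to 836 CPM in K-Ctrl and from 145 to 199.8 CPM in K-Setd2KO tumors, and summed endothelial markers from 406 to 1586 and from 154 to 387 CPM. Alveolar type 2 markers, which define the usual cell of origin, summed to 41530 to 62350 and 49300 to 70680 CPM. In bulk tissue fewer cells of a type and less RNA per cell cannot be told apart.

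The targeted gene was measured first. Setd2 (chr9:110532597-110618633 on the GRCm38 annotation) was at 152.7, 137.8, 132.1 and 137.6 CPM in K-Ctrl tumors 1 to 4, against 145.0, 121.3, 123.8 and 152.7 CPM in K-Setd2KO tumors 1 to 4. The groups overlapped, with a log2 fold change of -0.05 and an edgeR adjusted p of 0.824, and with differences of -0.18 within males and 0.01 within females. With 1 tumor left out the value ran from -0.11 (K-Setd2KO tumor 4) to -0.0014 (K-Setd2KO tumor 2). Gene counts do not read small edits at a guide's cut site, so this value is no check of the labels.

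Sesn1 was the only one of the 10 genes called between the groups, and it was lower in K-Setd2KO tumors. Ccng1 and Zmat3 were lower at the unadjusted level only, while Trp53 and its inhibitors Mdm2 and Mdm4 did not pass the test in either direction. The mean of Cdkn1a was 88.1 CPM in controls, against 91.8 CPM in knockouts. Over the 10 genes, 1 was called (adjusted p under 0.05), against 12.7% of all tested genes in either direction and 7.74% lower. None was called higher, against 4.97% of all genes. At unadjusted p under 0.05 there were 3 members, all lower, against 16.3% of all genes lower, and none higher. The median log2 fold change of the members was -0.30 with 7 of 10 below 0, against a median of 0.03 and 47.3% below 0 over all tested genes. DESeq2 called 2 members, both lower, against 17.2% of all genes it tested (10.6% lower), and limma voom called 1, lower, against 11.8% (7.21% lower). The share of members called was thus close to that of all genes under each tool.

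**Figure D1:**
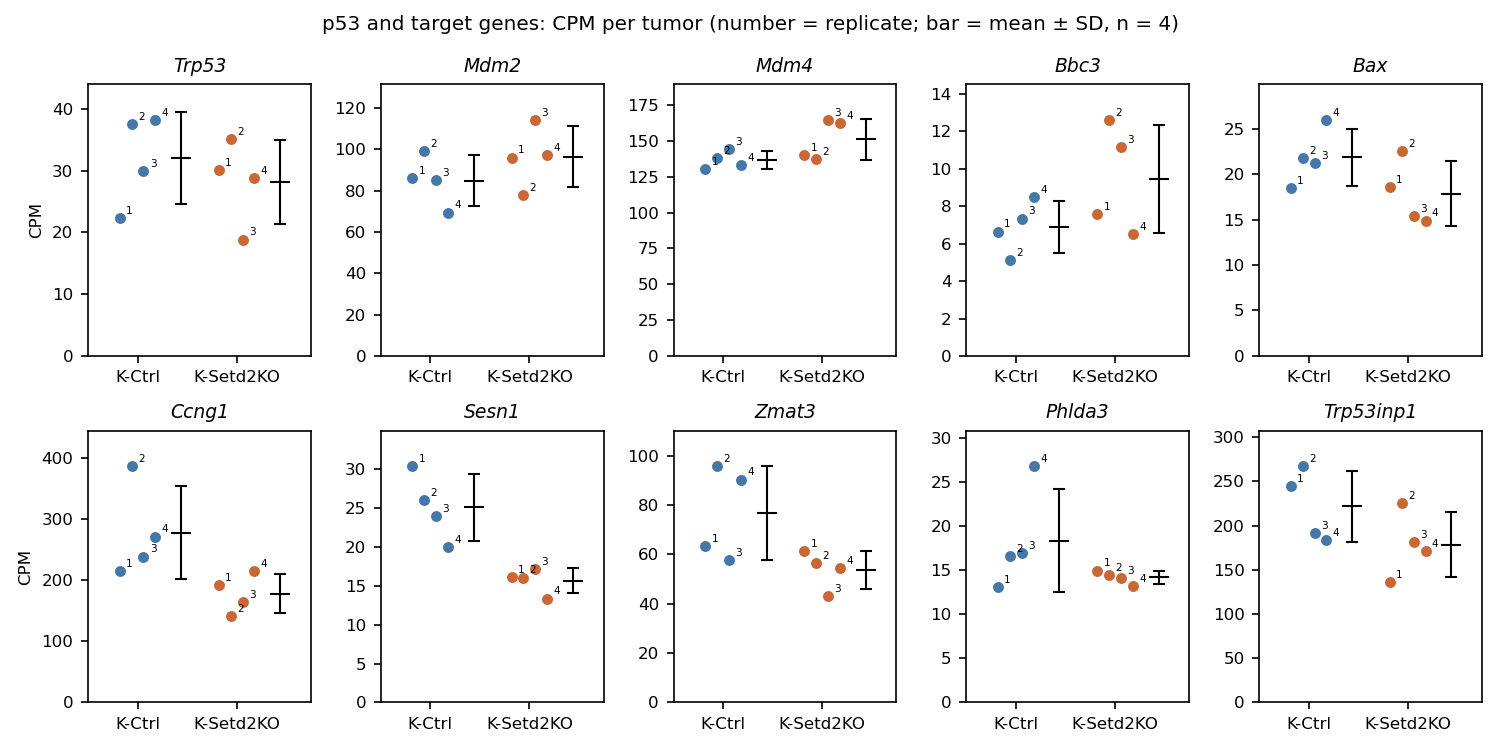
CPM of p53 and 9 targets in each tumor, on axes that start at 0, with blue points for K-Ctrl, orange points for K-Setd2KO, replicate numbers beside the points, and bars for the mean ± SD (n = 4). The groups separate for Sesn1 and, by a narrow margin, for Ccng1 (lowest control 215.9 CPM, highest knockout 215.5 CPM), and overlap for the other 8 genes.

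Trp53 itself (chr11:69580359-69591873, plus strand) was at 22.3, 37.5, 29.9 and 38.2 CPM in K-Ctrl tumors 1 to 4, against 30.1, 35.1, 18.8 and 28.75 CPM in K-Setd2KO tumors 1 to 4. The lowest value of all was in K-Setd2KO tumor 3, and 3 of the 4 knockout values lay inside the control range. The mean was 32.0 ± 7.44 CPM (SD, n = 4) against 28.2 ± 6.82, a log2 fold change of -0.18 ± 0.23 (SE) with a 95% interval of -0.70 to 0.34 and an edgeR adjusted p of 0.643. Both within-sex differences lay further below 0 than the pooled value (-0.64 in males, -0.26 in females), and a sex term gave -0.47 (adjusted p = 0.240). With 1 tumor left out the value ran from -0.32 (K-Ctrl tumor 1) to -0.02 (K-Setd2KO tumor 3), and it also moved with K-Setd2KO tumor 2 (-0.31), K-Ctrl tumor 2 (-0.10) and K-Ctrl tumor 4 (-0.08). The interval of the reported fit leaves room for a decrease to 0.616 of the control level or an increase to 1.27 times that level. The processed pseudogene Trp53-ps was at 0 in all tumors.

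Mdm2 (chr10:117688888-117710758, minus strand), the ligase that degrades p53, was at 85.9, 99.3, 85.1 and 69.4 CPM in K-Ctrl tumors, against 96.1, 78.0, 114 and 97.4 CPM in K-Setd2KO tumors 1 to 4. The highest value was in K-Setd2KO tumor 3, the tumor with the least Trp53 RNA, and the lowest in K-Ctrl tumor 4, the tumor with the most. The log2 fold change was 0.18 ± 0.15 (95% interval -0.16 to 0.52, edgeR adjusted p = 0.453), and it was 0.09 without K-Setd2KO tumor 3 and 0.10 without K-Ctrl tumor 4. Its sign differed between the sexes, at 0.52 in males and -0.14 in females.

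Mdm4 (chr1:132959484-133030561, minus strand), which binds p53 without degrading it, had the smallest coefficient of variation of the members among controls (4.67%). It was at 130.1, 138, 145 and 133 CPM in K-Ctrl tumors, against 140.1, 137, 165 and 162 CPM in K-Setd2KO tumors. Knockout tumors 3 and 4 lay above every control and tumors 1 and 2 inside the control range. The log2 fold change was 0.15 ± 0.11 (95% interval -0.09 to 0.39, edgeR adjusted p = 0.394), with 0.28 within males and 0.08 within females. The gene overlaps Gm29257 on the opposite strand, which was at 0.308 CPM or less, and the pseudogene Mdm4-ps was at 0.171 CPM or less.

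Within a tumor, the ratio of 2 transcripts per kb does not depend on library scaling, and 4 ratios were tested by exact permutation of the tumors (two-sided, smallest possible p 0.0286), with p adjusted over the 4. The log2 ratio of Mdm2 to Trp53 was 1.62, 1.08, 1.18 and 0.54 in K-Ctrl and 1.35, 0.83, 2.28 and 1.43 in K-Setd2KO tumors. It was highest in K-Setd2KO tumor 3 and lowest in K-Ctrl tumor 4, and the groups overlapped (difference 0.37, exact p = 0.4, adjusted 0.8). That difference was 0.10 without K-Setd2KO tumor 3, 1.17 within males, where that tumor is the only knockout, and 0.12 within females. The log2 ratio of Mdm2 to Mdm4 was 0.85 ± 0.20 against 0.89 ± 0.14 (SD, n = 4, exact p = 0.743, adjusted 0.971), a difference of 0.04 that fell below 0 without K-Ctrl tumor 4 (-0.04) or K-Setd2KO tumor 3 (-0.0047) and was 0.24 within males and -0.22 within females. Both pooled differences were smaller than the SD between tumors of either group.

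Sesn1 (chr10:41810574-41908424, plus strand) encodes sestrin 1, a stress-induced protein that restrains mTORC1. It was at 30.35, 25.97, 23.96 and 19.99 CPM in K-Ctrl tumors, against 16.13, 16.06, 17.17 and 13.35 CPM in K-Setd2KO tumors 1 to 4. Every control lay above every knockout tumor, and the knockout values were close together apart from the lower tumor 4. Sesn1 fell to 0.627 of the control level (95% interval 0.483 to 0.813), a log2 fold change of -0.67 ± 0.17 with an edgeR p of 0.00271 and an adjusted p of 0.0314. The difference within sexes was -0.50 in males and -0.77 in females. The sign held in 16 of 16 alternative fits (log2 -0.77 to -0.57), but the call held in only 7. It was lost without K-Ctrl tumor 1 (adjusted p = 0.0917), tumor 2 (0.0724) or tumor 3 (0.0781), and without K-Setd2KO tumor 1 (0.0613), tumor 3 (0.0569) or tumor 4 (0.0612). It was also lost with no low-count filter (0.0546) and with a sex term (0.0825). With replicate numbers as a block it was lost as well (0.0571), which left 0 members called against 8.98% of all genes (6.28% lower).

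Ccng1 (chr11:40748552-40755311, minus strand) encodes cyclin G1, which brings a phosphatase to Mdm2, and its upstream window holds the decamer pair shown above. It was at 215.9, 387, 239 and 272 CPM in K-Ctrl tumors, against 193, 141, 164 and 215.5 CPM in K-Setd2KO tumors. The groups did not overlap, though only just, and K-Ctrl tumor 2 stood above the other controls. Groups failed to overlap in 2 of the 10 members, Ccng1 and Sesn1, both lower, against 20.3% of all tested genes in either direction and 11.2% lower. For Ccng1 edgeR gave -0.64 ± 0.21 on the log2 scale (95% interval -1.11 to -0.18, unadjusted p = 0.0121, adjusted p = 0.0715), past the threshold only before adjustment. Without K-Ctrl tumor 2 the log2 fold change was -0.44 (adjusted p = 0.148). DESeq2 (adjusted p = 0.0324) and a sex term (0.0412) put Ccng1 past the threshold, and the differences within sexes were -0.55 in males and -1.10 in females.

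Zmat3 (chr3:32334792-32366014, minus strand), an RNA-binding zinc finger protein and p53 effector in tumor suppression, was at 63.5, 95.6, 57.8 and 90.3 CPM in K-Ctrl tumors, against 61.3, 56.3, 43.0 and 54.4 CPM in K-Setd2KO tumors. The controls split into a high pair (tumors 2 and 4) and a low pair (tumors 1 and 3), and K-Setd2KO tumor 1 lay inside the control range. In edgeR Zmat3 stood at -0.51 ± 0.19 on the log2 scale (95% interval -0.94 to -0.08, unadjusted p = 0.0247, adjusted p = 0.109). A sex term brought the adjusted p to 0.0470, and the differences within sexes were -0.68 in males and -0.74 in females. With that term 2 members, Ccng1 and Zmat3, were called, both lower, against 8.29% of all genes (5.25% lower), and Sesn1 was not.

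**Figure D2:**
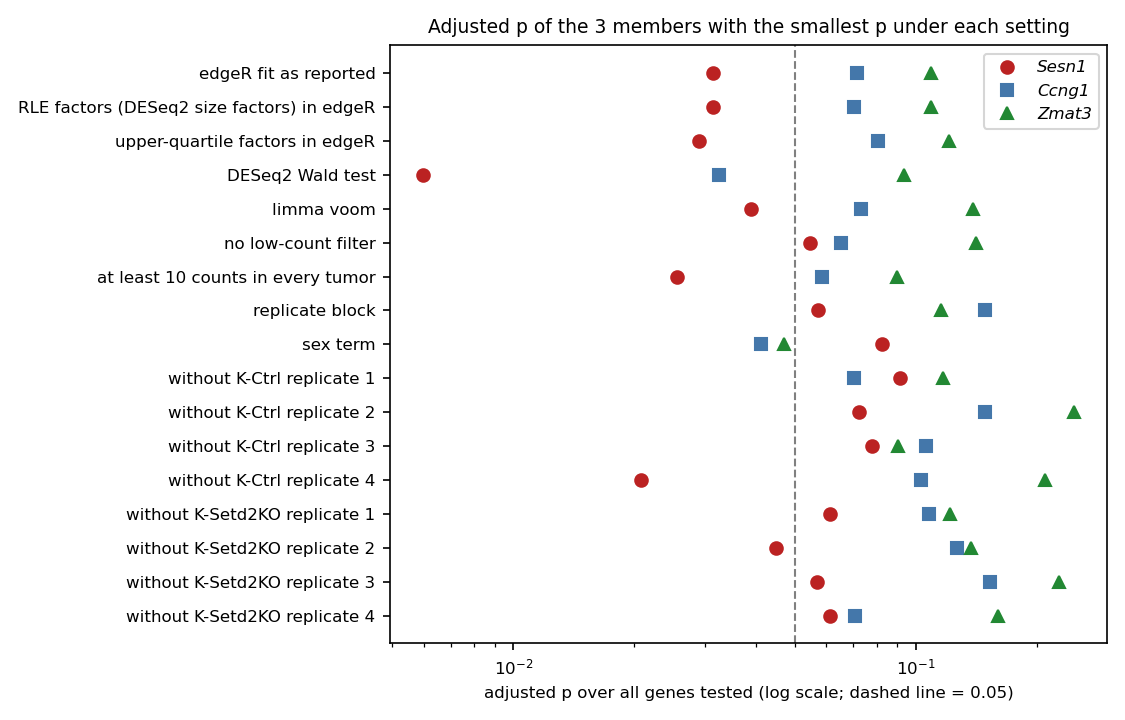
Adjusted p over all genes tested (log axis) for Sesn1, Ccng1 and Zmat3 under the edgeR fit as reported and 16 alternatives, with a dashed line at 0.05. Sesn1 lies left of the line in the reported fit and 7 alternatives, Ccng1 in 2 and Zmat3 in 1.

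The fitted differences of the apoptosis effectors had opposite signs, and neither passed the test. Bbc3 (chr7:16308393-16318205, plus strand) encodes Puma, a BH3-only protein that frees Bax, and was at 6.65, 5.13, 7.34 and 8.48 CPM in K-Ctrl tumors, against 7.60, 12.6, 11.2 and 6.504 CPM in K-Setd2KO tumors. Knockout tumors 2 and 3 lay above all controls and tumors 1 and 4 among them (log2 fold change 0.46 ± 0.27, 95% interval -0.15 to 1.08, edgeR adjusted p = 0.289), with 0.29 without K-Setd2KO tumor 2, 0.57 within males and 0.72 within females. Bax (chr7:45461697-45466898, minus strand), the pore-forming protein of the mitochondrial outer membrane, was at 18.5, 21.8, 21.2 and 25.97 CPM in K-Ctrl tumors, against 18.6, 22.6, 15.4 and 14.9 CPM in K-Setd2KO tumors. Here knockout tumors 3 and 4 lay below all controls and tumors 1 and 2 among them (log2 fold change -0.29 ± 0.18, 95% interval -0.69 to 0.12, edgeR adjusted p = 0.326), with -0.49 within males and -0.24 within females. The gene shares bases with Gm45808 on its own strand, which was at 0 in all tumors.

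Bax was also set against the survival genes that it opposes. The log2 ratio of Bax to Bcl2 averaged 2.68 ± 0.40 in K-Ctrl and 2.68 ± 0.54 in K-Setd2KO tumors (SD, n = 4), a difference of 0.0024 (exact p = 0.971, adjusted 0.971), with 0.29 within males and 0.12 within females. The log2 ratio of Bax to Bcl2l1, the gene of Bcl-xL, was -1.97, -0.94, -1.47 and -0.81 in K-Ctrl and -2.29, -1.34, -1.43 and -2.44 in K-Setd2KO tumors. Knockout tumors 1 and 4 had the least Bax for their Bcl2l1, and the groups overlapped (difference -0.58, exact p = 0.229, adjusted 0.8). That difference was -0.01 within males and -1.08 within females. By itself Bcl2 had a log2 fold change of -0.27 (edgeR adjusted p = 0.464, -0.77 within males and -0.35 within females). With 1 tumor left out it ran from -0.44 (K-Setd2KO tumor 4) to -0.12 (K-Setd2KO tumor 3). For Bcl2l1 the log2 fold change was 0.31 (edgeR adjusted p = 0.472, -0.48 within males and 0.84 within females). It ran from 0.13 (K-Setd2KO tumor 1) to 0.485 (K-Setd2KO tumor 3) with 1 tumor left out.

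**Figure D3:**
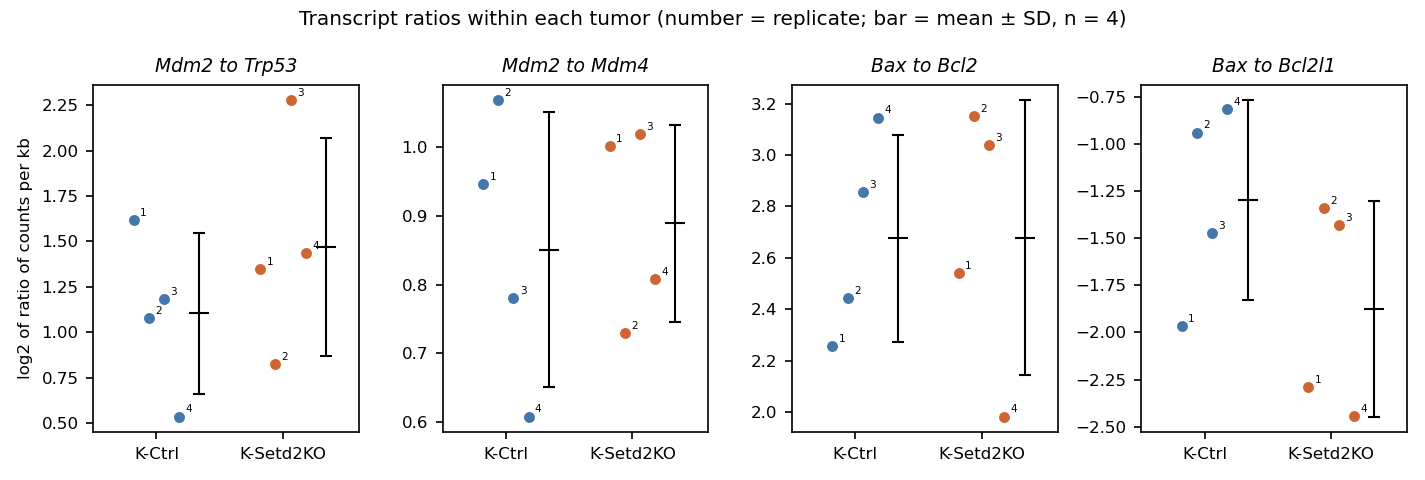
Log2 ratio of counts per kb of gene pairs within each tumor, with replicate numbers beside the points and bars for the mean ± SD (n = 4). The axes do not start at 0 because the values are on a log scale, and in each of the 4 panels the K-Ctrl and K-Setd2KO tumors overlap.

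Phlda3 and Trp53inp1 both had means below the controls without passing the test. Phlda3 (chr1:135766119-135769136, plus strand), a pleckstrin-homology protein that holds back Akt at the membrane, was at 13.1, 16.6, 16.9 and 26.8 CPM in K-Ctrl tumors, against 14.9, 14.5, 14.1 and 13.2 CPM in K-Setd2KO tumors. K-Ctrl tumor 4 stood far above the rest, and the knockout tumors were tightly grouped (coefficient of variation 5.26% against 32.0% in controls). Phlda3 had a log2 fold change of -0.37 ± 0.22 (95% interval -0.86 to 0.13, edgeR adjusted p = 0.296), of -0.13 without K-Ctrl tumor 4, and differences of -0.36 within males and -0.22 within females. Trp53inp1 (chr4:11156431-11174379, plus strand), a nuclear stress protein that aids p53 phosphorylation and autophagy, was at 244, 267, 192 and 184 CPM in K-Ctrl tumors, against 136, 226, 181 and 171 CPM in K-Setd2KO tumors. Its controls fell into a higher and a lower pair, K-Setd2KO tumor 1 was the lowest tumor, and the groups overlapped (log2 fold change -0.31 ± 0.18, 95% interval -0.73 to 0.10, edgeR adjusted p = 0.287), with -0.20 without K-Setd2KO tumor 1, -0.18 within males and -0.62 within females.

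**Figure D4:**
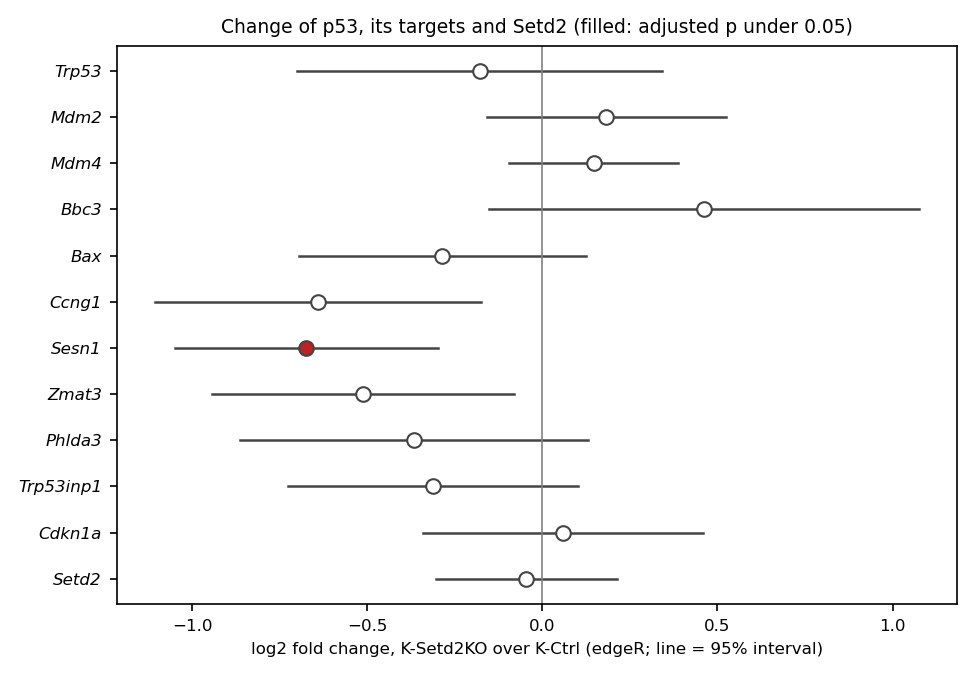
Log2 fold change of K-Setd2KO over K-Ctrl tumors for the 10 members, Cdkn1a and Setd2 from the edgeR fit over 14929 genes, with lines for the 95% interval and a filled point for adjusted p under 0.05. Only the point of Sesn1 (-0.67) is filled, and the lines of Sesn1, Ccng1 and Zmat3 do not reach 0.

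No single tumor was high or low across the members. K-Ctrl tumors 2 and 4 each held the highest control value of 4 members, but of different ones: Mdm2, Ccng1, Zmat3 and Trp53inp1 in tumor 2, and Trp53, Bbc3, Bax and Phlda3 in tumor 4. K-Ctrl tumor 1 held the lowest control value of 5 members and the highest of Sesn1. Among knockouts, tumor 2 held the highest value of 4 members (Trp53, Bbc3, Bax and Trp53inp1), and tumor 4, the most thinly sequenced, the lowest of 4 (Bbc3, Bax, Sesn1 and Phlda3).

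Levels per kb, taken over the gene length given with the counts, spanned a wide range. That length need not be the length of the transcripts present, so the order between genes is approximate. In K-Ctrl tumors Ccng1 was the most abundant at a mean of 79.3 CPM per kb, followed by Trp53inp1 (34.3), Mdm2 (16.8), Bax (13.9), Phlda3 (11.8), Mdm4 (9.23), Trp53 (7.91), Sesn1 (7.53), Zmat3 (6.72) and Bbc3 (3.25). Only Ccng1, Trp53inp1 and Zmat3 had a range over the 4 tumors that stayed clear of the next gene in this order. In K-Setd2KO tumors the order was Ccng1 (50.8 CPM per kb), Trp53inp1 (27.6), Mdm2 (19.0), Bax (11.3), Mdm4 (10.2), Phlda3 (9.09), Trp53 (6.97), Sesn1 (4.71), Zmat3 (4.70) and Bbc3 (4.46). There only Ccng1 and Mdm2 were clear of the next gene, and Phlda3 and Mdm4, neighbors with overlapping ranges, changed places.

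The genes whose centered log2 CPM profile over the 8 tumors lay nearest to that of Trp53, out of 13354 protein-coding genes, were Rrp12 (root mean square difference 0.115), Cd74 (0.137) and Ints1 (0.145), against a median of 0.497 over all of them. For Mdm2 they were Rab18 (0.0379), Zmym2 (0.0655) and Tmem59 (0.0682), against a median of 0.395. All points share the same libraries and scaling.

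Cdkn1a, the p53 target most used as a reporter of its activity, was at 86.55, 94.3, 72.2 and 99.5 CPM in K-Ctrl tumors, against 93.0, 121, 71.4 and 81.5 CPM in K-Setd2KO tumors. K-Setd2KO tumor 2 was the highest and tumor 3 the lowest of all 8. Its log2 fold change was 0.06 ± 0.18 (95% interval -0.34 to 0.46, edgeR adjusted p = 0.853), and its sign turned with a sex term (-0.10), without K-Ctrl tumor 3 (-0.03) and without K-Setd2KO tumor 2 (-0.11), and differed between males (-0.26) and females (0.04). The interval excludes a change as large as 2-fold in either direction.

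The wider pathway was read from fixed lists of 85 other genes (Cdkn1a included), of which 80 were tested. Of these 0 were called higher and 5 lower by edgeR, against 4.97% and 7.74% of all genes, and their median log2 fold change was 0.00. At unadjusted p under 0.05 there were 8 higher and 14 lower, against 13.6% and 16.3% of all genes. DESeq2 called 17 (6 higher, 11 lower), against 17.2% of all genes it tested (10.6% lower), and limma voom 6 (1 higher, 5 lower), against 11.8% (7.21% lower).

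**Figure D5:**
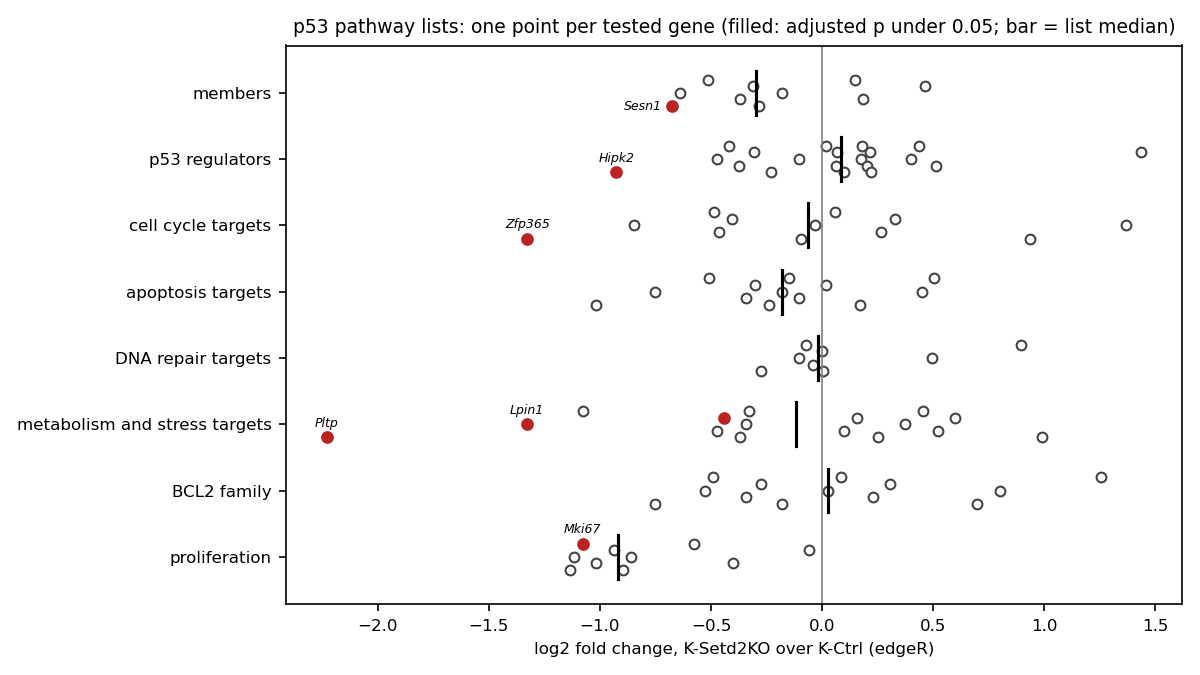
Log2 fold change of K-Setd2KO over K-Ctrl for each tested gene of 8 lists, with filled points for adjusted p under 0.05, named except for 1, and black bars for list medians. The medians of the p53 lists lie between -0.30 (members) and 0.08 (p53 regulators), while the proliferation genes lie below 0 with a median of -0.92.

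Among 20 regulators of p53 the single call was Hipk2, a kinase that phosphorylates p53 and promotes apoptosis. Hipk2 was at 137.5, 82.9, 104 and 92.2 CPM in K-Ctrl tumors, against 59.8, 45.4, 57.5 and 56.65 CPM in K-Setd2KO tumors, with no overlap. It fell to 0.526 of the control level (95% interval 0.402 to 0.689, log2 fold change -0.93 ± 0.17, edgeR adjusted p = 0.0130), and the call held in 16 of 16 alternatives. Within males Hipk2 differed by -0.93 and within females by -0.63. Tbxas1 lies on the opposite strand over part of this gene, and the strand setting of the counting is not given in the sources used here. The 1 call, lower, compares with 7.74% of all genes. At unadjusted p under 0.05 there were 1 higher and 3 lower regulators (13.6% and 16.3% over all genes), DESeq2 called 3 (1 higher, 2 lower, against 17.2% of all genes) and limma voom 1 (lower, against 11.8%), and the median of the list was 0.08.

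Cdkn2a, the tumor suppressor locus whose Arf product inhibits Mdm2, was named after its values were seen. It was at 3.07 ± 0.558 CPM in controls, against 8.33 ± 4.81 CPM in knockouts (SD, n = 4), with overlap, a log2 fold change of 1.44 ± 0.45 and an edgeR adjusted p of 0.0647. DESeq2 called it higher (adjusted p = 0.0135), as did edgeR without K-Setd2KO tumor 2 (0.0171), while the other 14 alternatives did not (limma voom 0.146). The difference was 2.22 within males and 0.70 within females. Gene counts do not separate Arf from the Ink4a transcript of the same locus. The p53 relatives Trp63 and Trp73, also picked out after their values were seen, were too low for testing. Trp63 had 0 to 4 reads per tumor, and Trp73 had 5 to 33 reads in K-Ctrl and 0 to 4 in K-Setd2KO tumors.

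Of 12 cell cycle targets, 1 was called, lower, against 7.74% of all genes. At unadjusted p under 0.05 there were 2 higher and 2 lower (13.6% and 16.3% over all genes). DESeq2 called 3 (1 higher, 2 lower), against 17.2% of all genes it tested (10.6% lower). With limma voom 1 was called, lower, against 11.8% (7.21% lower). Zfp365, a p53-induced protein of genome stability, was at 13.4, 10.6, 13.1 and 6.25 CPM in K-Ctrl tumors, against 4.31, 3.595, 6.645 and 2.57 CPM in K-Setd2KO tumors. K-Ctrl tumor 4 lay just below K-Setd2KO tumor 3, the other controls above all knockouts (log2 fold change -1.33 ± 0.35, edgeR adjusted p = 0.0376). The call was lost with a sex term (0.0882) and when K-Ctrl tumor 1 (0.0978), 2 (0.0740) or 3 (0.105) or K-Setd2KO tumor 1 (0.0761), 2 (0.0675) or 4 (0.0686) was left out. Zfp365 differed by -0.62 within males and -1.59 within females.

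Among 13 apoptosis targets and 8 DNA repair targets edgeR called none in either direction, against 4.97% of all genes higher and 7.74% lower. At unadjusted p under 0.05 there were 1 higher and 3 lower apoptosis targets and 1 higher repair target, against 13.6% higher and 16.3% lower over all genes. DESeq2 called 3 of the apoptosis list (1 higher, 2 lower) and 1 of the repair list (higher), and limma voom 1 (higher) and 0, against 17.2% and 11.8% of all genes under these tools. Their medians were -0.18 and -0.02. Of 13 tested members of the BCL2 family, which sets the threshold for apoptosis, edgeR and limma voom called 0 and DESeq2 2 (both higher), against 12.7%, 11.8% and 17.2% of all genes, with 2 higher and 3 lower at unadjusted p under 0.05 (13.6% and 16.3% over all genes) and a median of 0.03.

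Metabolism and stress targets held 3 of the 5 calls among 16 tested genes, all 3 lower, against 7.74% of all genes lower. At unadjusted p under 0.05 there were 1 higher and 4 lower (13.6% and 16.3% over all genes). DESeq2 called 4 and limma voom 3, all lower, against 10.6% and 7.21% of all genes lower under these tools. Pltp, the phospholipid transfer protein of plasma lipoproteins, was at 78.6, 24.2, 59.6 and 24.7 CPM in K-Ctrl tumors, against 13.4, 11.55, 7.84 and 6.675 CPM in K-Setd2KO tumors. Its controls spread widely and all lay above the knockouts (log2 fold change -2.23 ± 0.43, edgeR adjusted p = 0.0148). Lpin1, a phosphatidate phosphatase of lipid metabolism, was at 91.5, 46.6, 73.6 and 40.2 CPM against 24.1, 31.3, 23.6 and 21.1 CPM, again without overlap (log2 fold change -1.33 ± 0.27, edgeR adjusted p = 0.0158). Both calls held in 15 of 16 alternatives and were lost with a sex term (0.0717 and 0.0626). Pltp differed by -2.61 within males and -1.25 within females, and Lpin1 by -1.45 and -0.89. Ctsa lies opposite part of Pltp.

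Markers of other cell types and proliferation genes were read from the same edgeR fit, in which 4.97% of all genes were called higher and 7.74% lower. Of 5 pan-leukocyte markers 4 were called lower (median log2 fold change -1.80) and of 5 endothelial markers 2 (median -1.92), and no marker of these lists was at 0 in any tumor. Lower calls were also made for 4 of 6 macrophage markers (median -1.72), 1 of 5 T cell markers (-1.92), 1 of 5 fibroblast markers (-0.91), 1 of 5 alveolar type 1 markers (-0.23) and 1 of 3 tested ciliated cell markers (-2.31), with none higher in these lists at either level of p. For lists without a call in edgeR the medians were -1.996 (B cell, 2 of 4 lower at unadjusted p under 0.05), -1.74 (erythroid, 4 of 4 lower), -0.96 (smooth muscle, 2 of 4 lower), -1.23 (club cell, 1 of 3 lower) and 0.54 (neutrophil, 1 of 5 higher). Of 6 epithelial markers 2 were called higher (median 0.39), while of 7 alveolar type 2 markers 1 was called higher and 1 lower (median 0.00). These were Sftpb, a surfactant protein gene (log2 fold change 1.09, edgeR adjusted p = 0.0122, 1.04 within males and 1.30 within females), and Napsa, the gene of napsin A, named after its values were seen (-1.60, edgeR adjusted p = 0.0338, -0.91 within males and -1.97 within females). All 10 proliferation genes lay below 0 (median -0.92), against 47.3% of all genes, and 6 were lower at unadjusted p under 0.05, against 16.3%, with 1 called, Mki67, the Ki-67 antigen. Mki67 was at 96.4, 101.8, 90.2 and 96.8 CPM in K-Ctrl tumors, against 63.4, 26.1, 29.4 and 64.0 CPM in K-Setd2KO tumors (log2 fold change -1.08 ± 0.30, edgeR adjusted p = 0.0449). Its call held in 8 of 16 alternatives, and without 1 tumor only when K-Setd2KO tumor 1 (0.0377) or 4 (0.0413) was left out, and the differences were -1.68 within males and -1.10 within females. The part of these cell type and proliferation differences in the values of Sesn1, Ccng1, Zmat3, Hipk2, Pltp and Lpin1 was not tested.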

How the data were processed

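Per the labels, total RNA of 8 lung tumors was made into TruSeq Stranded mRNA libraries and sequenced paired-end. The authors deposited raw counts per gene, and the submitters' processing notes name STAR 2.5.2b, featureCounts 1.5.0-p1 and GRCm38.p4. The strand setting and annotation release are not given in the sources used here. Gene lengths came from the deposited table, and 99.26% of its 48709 gene IDs matched GENCODE M21. The 10 genes and all lists were chosen with earlier results of these data known.

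Counts were fitted in edgeR 4.0.16 under R 4.3.3 (filterByExpr, TMM factors, robust quasi-likelihood test, genotype alone), with Benjamini-Hochberg adjustment over 14929 genes and a threshold of 0.05. CPM used the scaled library size, and log2 CPM a prior count of 2. SE values follow from the F statistic and 95% intervals from the t quantile. The study used DESeq2, run here as an alternative (version 1.42.0), besides limma 3.58.1 voom, other scaling factors, other filters, a replicate block, a sex term and leaving out each tumor in turn. Counts limit precision through counting error too, and a count of 3 was taken as the detection floor. No pair of libraries in a group agreed within sampling noise (lowest chi-square per degree of freedom 30.5). Same-numbered tumors of both groups did not deviate together (r from -0.07 to 0.19), so numbers were not taken to pair them.

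Genes named are all members, Setd2, Cdkn1a, Bcl2 and Bcl2l1, up to 2 called genes per direction of each pathway list, the gene with the smallest p among the proliferation genes and in each marker list (at most), and the 3 nearest profiles of Trp53 and Mdm2. Exceptions are marked in the text. The model's activating allele and 1 called gene of the metabolism and stress list are not reported here.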

Additional observations from a re-analysis of the deposited data

Results flagged for a closer look

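Of 78 groups of 4 tumors examined, 3 had a tumor far from the others, with 3.9 expected by chance. Summed T cell markers were at 28.45 CPM in K-Setd2KO tumor 1 against 6.46 to 10.1 CPM in the other knockouts, and summed erythroid markers at 180.2 CPM in the same tumor against 67.2 to 82.5 CPM. Summed club cell markers were at 975 CPM in K-Setd2KO tumor 4 against 221 to 273 CPM. No member was among them. Without K-Setd2KO tumor 1 the log2 fold change of Sesn1 was -0.69 and that of Ccng1 -0.68, and without tumor 4 -0.61 and -0.75.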

How the results depend on the processing

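Calls over all genes, 1897 as reported, were 3211 with DESeq2 and 1237 with a sex term, and ranged from 763 to 2058 when 1 tumor was left out. Member calls, 1 as reported, were 2 with DESeq2 and with a sex term, 0 without the low-count filter and with the replicate block, and 0 to 1 without 1 tumor. Pathway calls, 5 as reported, were 17 with DESeq2 and 3 to 10 without 1 tumor. As a replicate block the shared numbers gave 1341 calls over all genes, though the numbers were not taken to pair the tumors. The log2 fold change of Cdkn1a turned to -0.10 with a sex term and ranged from -0.11 (without K-Setd2KO tumor 2) to 0.17 without 1 tumor, with -0.03 without K-Ctrl tumor 3. The B cell marker median, -1.996, was 0.38 with at least 10 counts required in every tumor, which leaves fewer genes.

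Within males (3 controls, 1 knockout) and females (1 and 3) the log2 differences were 1.17 and 0.12 for Mdm2 to Trp53, 0.24 and -0.22 for Mdm2 to Mdm4, and -0.013 and -1.08 for Bax to Bcl2l1. Leaving out 1 tumor gave ranges for Mdm2 to Trp53 of 0.10 to 0.58, Bax to Bcl2l1 of -0.80 to -0.39, Mdm2 to Mdm4 of -0.042 to 0.11 and Bax to Bcl2 of -0.16 to 0.23. Reversals came without K-Ctrl tumor 4 (-0.042) or K-Setd2KO tumor 3 (-0.0047) for Mdm2 to Mdm4, and for Bax to Bcl2 without K-Ctrl tumor 1 (-0.14) or 2 (-0.08) or K-Setd2KO tumor 2 (-0.16) or 3 (-0.12). The causes were not tested. At 38 to 165 reads per tumor Bbc3 has the widest interval of the members.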
